A study of Homo sapiens with 6 samples.

Results

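The mitochondrial ribosomal protein genes were read out in 22RV1, a human prostate carcinoma cell line, by RNA sequencing after poly(A) selection. Genes were taken as members if their Ensembl identifier maps to a protein-coding gene whose symbol starts with MRPL or MRPS and a number. By this rule 78 of the 17811 genes in the deposited table were members, 49 with a large-subunit (MRPL) and 29 with a small-subunit (MRPS) symbol. The 3 groups are lines that stably carry a hairpin against IMPDH2 (shIMPDH2), against IMPA1 (shIMPA1) or against luciferase (shLuc, the control), with 2 libraries each. All were grown in RPMI-1640 with FBS, with no other treatment. The sample titles name 1 hairpin target per group and number its libraries 1 and 2. They do not state whether the libraries of a group are separate cultures, lines or hairpins. The p-values given here thus rest on library-to-library spread that could be purely technical. IMPDH2 encodes the enzyme that commits IMP to guanine nucleotide synthesis, and IMPA1 encodes inositol monophosphatase, which releases free myo-inositol.

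The mitochondrial ribosome (mitoribosome) translates the few mRNAs of the mitochondrial genome, all of which code for subunits of the respiratory chain and ATP synthase. Its RNAs come from the mitochondrial genome, but every one of its proteins is encoded in the nucleus, made in the cytosol and imported. Many of these proteins descend from bacterial ribosomal proteins and keep their place in the particle, while others were added in the mitochondrial lineage and sit mostly on its surface. By the current ribosomal protein nomenclature 46 members have a bacterial counterpart (30 large, 16 small) and 32 have none (19 large, 13 small). Symbol and position do not always match: in the known structures MRPS30 and MRPS18A belong to the large subunit, and MRPS36 is now assigned to the 2-oxoglutarate dehydrogenase complex. By position the members are therefore 51 large-subunit proteins, 26 small-subunit proteins and MRPS36.

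Library size, from read numbers recovered out of the deposited normalized values, was 20828900 and 22442454 for shIMPDH2, 26215122 and 27601249 for shIMPA1, and 27405563 and 27773294 for shLuc. The members took 0.833% and 0.902% of the reads in the shIMPDH2 libraries, 0.847% and 0.805% in the shIMPA1 libraries, and 0.825% and 0.755% in the shLuc libraries. Values per library are normalized reads throughout, each log2 fold change compares log2(value + 1) between groups, and ± after it is its standard error. IMPDH2 had 2932 and 3166 normalized reads in the shIMPDH2 libraries, against 4269.9 and 5032 in the shLuc libraries (limma log2 fold change -0.61 ± 0.13, adjusted p = 0.00999). IMPA1 had 957 and 1101 in the shIMPA1 libraries, against 1621 and 1331 in the shLuc libraries (limma log2 fold change -0.52 ± 0.13, adjusted p = 0.0145). Each targeted mRNA was thus lower in its own line, with no overlap between the groups. All 9 luminal prostate markers examined (among them KLK3 and HOXB13) were present in every library, with summed normalized counts of 85039.8 and 90095 in shIMPDH2, 90409 and 85464 in shIMPA1 and 114808 and 112894 in shLuc. Of 6 stromal markers 5 were in the table, summing to 281 and 277 in shIMPDH2, 439.8 and 313 in shIMPA1 and 585 and 623 in shLuc. Of the 4 tested, 2 fell in shIMPDH2 and 3 in shIMPA1, LUM in both (limma -3.80, adjusted p = 0.000259 in shIMPDH2 and -2.55, adjusted p = 0.00162 in shIMPA1), and their part in the members' values was not tested. No row was found for any of 6 blood and endothelial markers, so no level is given for them.

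All 78 members passed the filter for testing, a normalized count of at least 10 in at least 2 libraries, and none came near it: their lowest value in any library was 254 and their highest 10459.7. In shLuc the median member had 1972 normalized reads, against 397 for the median of the 17742 genes tested, and stood at percentile 84.0. The genes are scattered over 21 chromosomes, with 8 on each of chromosomes 1, 2 and 17 and 7 on chromosome 11. Divided by the median length of each gene's protein-coding transcripts, shLuc levels spanned 80.8-fold between members. By that length the highest level per kilobase belonged to MRPL51 (17233 ± 1859 normalized reads per kb, SD, n = 2), a large-subunit protein with no bacterial counterpart. MRPL24 followed with 8178 ± 1269 per kb (SD, n = 2), and its bacterial counterpart is one of the proteins that start large-subunit assembly. MRPL49 had 7965 ± 471 per kb (SD, n = 2) and overlapped MRPL24 within the spread between libraries. At the low end stood MRPL53 with 345 ± 23.9, MRPL38 with 282 ± 1.62 and MRPL22 with 213 ± 5.47 per kb (SD, n = 2 each). Same-strand genes cover 45.2% of the exon bases of MRPL53 (CCDC142) and 37.5% of those of MRPL38 (AC087289.3). At the high end, on the opposite strand, NCAPD2 covers 31.3% of those of MRPL51. SYVN1 covers 11.6% and FAU 9.16% of those of MRPL49, also on the opposite strand. The part of these overlaps in the members' counts was not tested. The order at both ends depends on the length used: by length of the merged exons MRPS34 ranked 1, MRPL51 2, MRPL24 3 and MRPL49 21, and the lowest were MRPL22, MRPL46 and MRPS6. MRPL22 has a bacterial counterpart that lines the tunnel through which the nascent chain leaves. The median level per kb in shLuc was 2364 for large-subunit and 1479 for small-subunit members.

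Promoter sequences in RefSeq (GRCh38.p14), running from 250 bases before to 50 bases after the annotated start, were matched for 69 of the 78 members. Those of the 5 members with the largest fold changes between shIMPA1 and shLuc are given here, since these genes recur in the comparisons that follow. Capitals mark every match, on either strand, to 2 words: CCGGAAG, the core bound by ETS family factors such as GABPA, and AAGATGGC, the core bound by YY1. On the opposite strand the ETS word reads CTTCCGG. The words share no bases in these promoters.
MRPL41 (chr9:137551629-137551928, plus strand): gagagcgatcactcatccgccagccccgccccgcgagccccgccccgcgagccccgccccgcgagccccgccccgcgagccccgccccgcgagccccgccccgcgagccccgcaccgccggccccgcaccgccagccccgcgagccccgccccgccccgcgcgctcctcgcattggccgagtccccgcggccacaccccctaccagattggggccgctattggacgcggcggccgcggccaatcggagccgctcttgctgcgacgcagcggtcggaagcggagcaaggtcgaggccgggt
MRPL54 (chr19:3762432-3762731, plus strand): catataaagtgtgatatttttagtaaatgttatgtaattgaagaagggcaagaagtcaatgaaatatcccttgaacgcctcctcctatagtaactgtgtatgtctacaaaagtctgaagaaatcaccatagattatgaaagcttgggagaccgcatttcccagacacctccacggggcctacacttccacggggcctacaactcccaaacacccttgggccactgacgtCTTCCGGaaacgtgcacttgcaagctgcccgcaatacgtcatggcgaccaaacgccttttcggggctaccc
MRPL50 (chr9:101398569-101398868, minus strand): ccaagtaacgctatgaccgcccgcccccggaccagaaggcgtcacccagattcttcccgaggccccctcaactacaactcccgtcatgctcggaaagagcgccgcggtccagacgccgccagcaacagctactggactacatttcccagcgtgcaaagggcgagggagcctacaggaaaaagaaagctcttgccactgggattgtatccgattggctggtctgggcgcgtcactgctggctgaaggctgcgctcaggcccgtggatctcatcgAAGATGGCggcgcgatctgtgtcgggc
MRPL51 (chr12:6493213-6493512, minus strand): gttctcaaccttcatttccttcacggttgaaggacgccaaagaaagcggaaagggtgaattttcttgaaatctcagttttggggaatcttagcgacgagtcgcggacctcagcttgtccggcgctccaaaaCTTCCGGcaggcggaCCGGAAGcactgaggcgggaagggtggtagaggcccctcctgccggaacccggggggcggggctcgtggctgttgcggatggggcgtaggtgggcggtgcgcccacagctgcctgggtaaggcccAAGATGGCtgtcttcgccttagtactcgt
MRPL20 (chr1:1407244-1407543, minus strand): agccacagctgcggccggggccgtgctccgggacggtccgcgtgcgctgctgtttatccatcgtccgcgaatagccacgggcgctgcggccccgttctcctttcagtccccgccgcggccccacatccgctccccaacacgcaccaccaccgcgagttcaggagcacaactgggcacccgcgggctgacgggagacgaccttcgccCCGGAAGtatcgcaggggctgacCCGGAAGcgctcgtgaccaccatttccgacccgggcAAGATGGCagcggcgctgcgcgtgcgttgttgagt
MRPL51 and MRPL20 each hold 2 ETS words and 1 YY1 word, MRPL50 holds 1 YY1 word, MRPL54 holds 1 ETS word on the opposite strand, and MRPL41 holds neither word in this window. The windows of MRPL41 and MRPL51 lie wholly inside the genes as placed by GENCODE 29 (137551199 to 137552555 and 6491886 to 6493841). The 2 annotations thus differ in the start of these genes, and bases before the GENCODE start were not searched. Over the members, the ETS word was in 29 of 69 promoters (42.0%), against 18.1% of the 11326 promoters of protein-coding genes tested. The YY1 word was in 20 of 69 (29%), against 5.04% of the same promoters. Shares were alike in both subunits: the ETS word was in 17 of 42 large-subunit and 12 of 27 small-subunit promoters, and the YY1 word in 12 of 42 and 8 of 27. The palindromic site of NRF1, searched in the same way, was in 1 of 69 (1.45%), the promoter of MRPL17, against 2.17%. Among the 35116 promoters of the whole RefSeq table the shares were 10.3% for the ETS word, 2.89% for the YY1 word and 1.24% for the NRF1 site. On the gene's own strand 15 of 17 YY1 words in members began at or after the start site (88.2%), against 75.6% of such words in the protein-coding genes tested. The YY1 word contains ATG, and in the windows of MRPL50, MRPL51 and MRPL20 it lies 15 to 23 bases past the start. In all, 42 of the 69 promoters held at least 1 of the 3 motifs, 8 held 2 of them and 27 held none.

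In the shIMPA1 line individual members differed from shLuc both ways, with a family median near 0. MRPL41 and MRPL54, both large-subunit proteins without a bacterial counterpart, were among the members that rose, and MRPL50, MRPL51 and MRPL20 among those that fell. At a limma adjusted p under 0.05, 7 members were higher and 9 lower in shIMPA1 than in shLuc, which is 20.5% of the 78. Over all genes tested the share was 30.2% (14.0% higher, 16.2% lower), so the members' share lay below that of the background, and the difference was not tested. Their log2 fold changes ran between -0.79 and 0.99 with a median of 0.03, against 0.02 for all genes tested, and 43 were above 0. In 74 of the 78 (94.9%) the change was within 1.5-fold, against 71.8% of all genes.

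**Figure D1:**
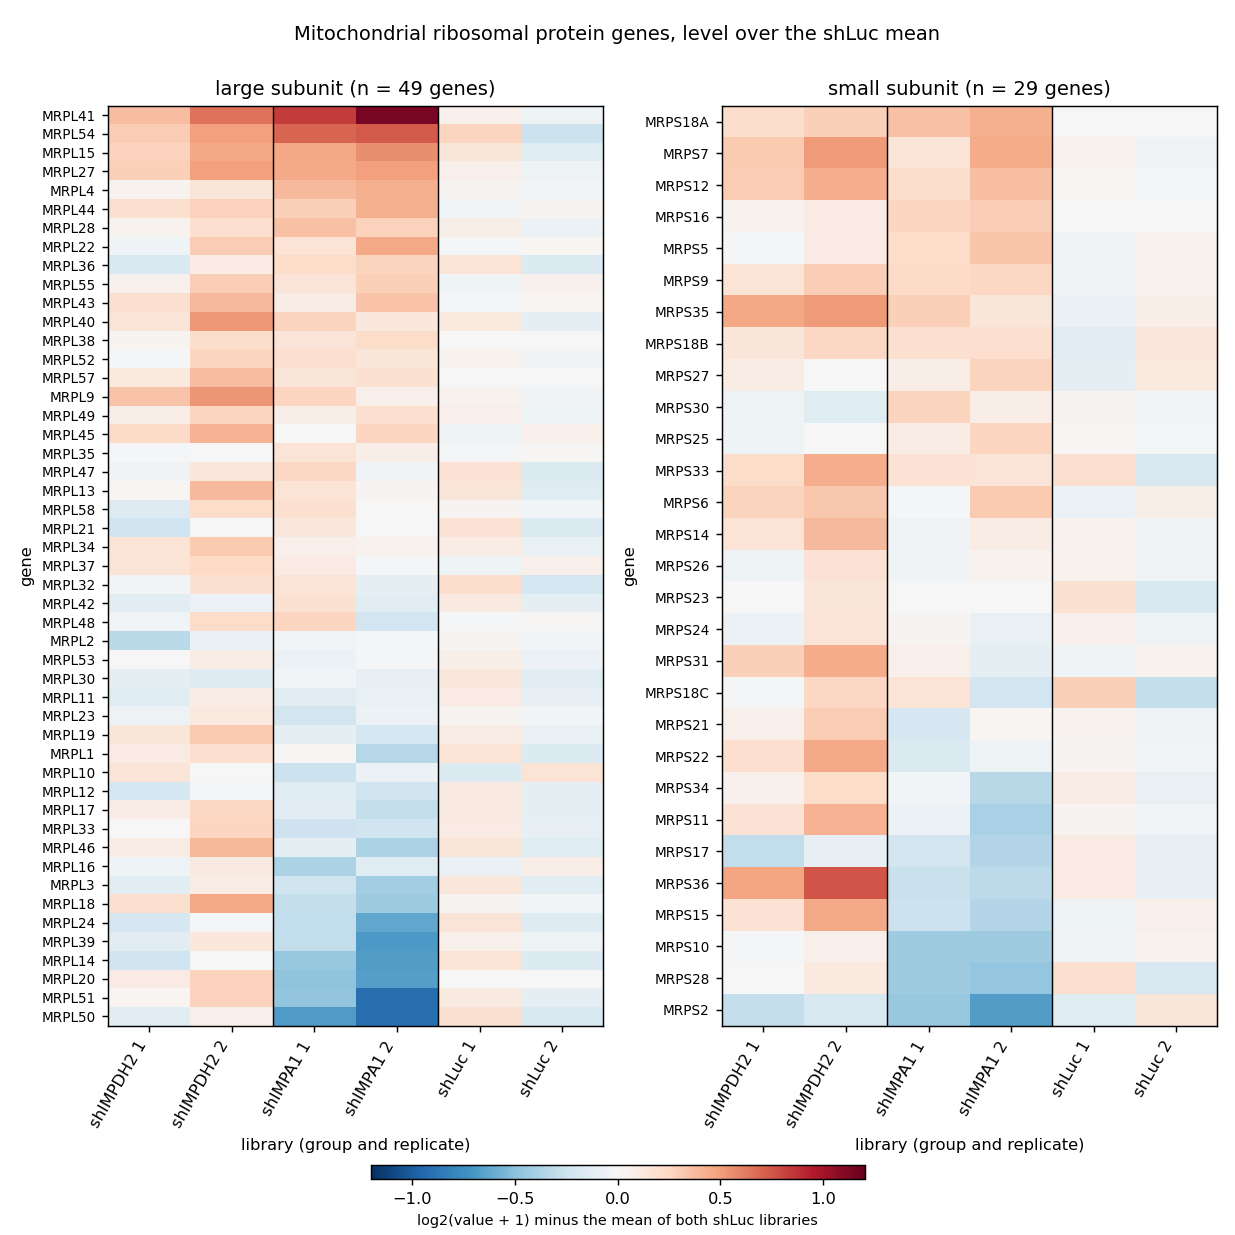
Levels of the 49 large-subunit (left) and 29 small-subunit (right) genes by symbol in each library, as log2(value + 1) minus the mean of both shLuc libraries; genes run down the page in order of their shIMPA1 over shLuc change. The shIMPA1 columns shade across the whole scale, from MRPL41 (0.99) to MRPL50 (-0.79), while in shIMPDH2 most rows are pale red, darker in replicate 2.

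Of the 7 members that rose, 6 were large-subunit genes by symbol. MRPL41, at GRCh38 chromosome 9, 137551199 to 137552555, had 7811 and 9578 in the shIMPA1 libraries, against 4535 and 4192 in the shLuc libraries. Its fold change was 1.99 (limma log2 fold change 0.99 ± 0.15, adjusted p = 0.000693), and every shIMPA1 value lay above every value of the other groups. MRPL41 protein also binds the apoptosis regulator BCL2. MRPL54 (chromosome 19, 3762664 to 3768575) had 3544 and 3646 in the shIMPA1 libraries, against 2605 and 1831 in the shLuc libraries (limma log2 fold change 0.72 ± 0.16, adjusted p = 0.00673). MRPL15 had 3372 and 3612 in the shIMPA1 libraries, against 2708 and 2215 in the shLuc libraries (limma log2 fold change 0.51 ± 0.13, adjusted p = 0.0153). In both genes the shLuc libraries differed more from each other than the shIMPA1 libraries did. The other members that rose by limma were MRPL27 (log2 fold change 0.47, adjusted p = 0.0140), whose bacterial counterpart reaches towards the peptidyl transferase centre, and MRPL4 (0.41, adjusted p = 0.0204), whose counterpart lines the exit tunnel. MRPS18A (0.39, adjusted p = 0.0306) and MRPL44 (0.36, adjusted p = 0.0429) completed the list by limma. MRPS18A is the large-subunit member of the S18 trio, and MRPL44 has a ribonuclease III-like fold. By position every member called higher thus belonged to the large subunit, which holds 51 of the 78. At an unadjusted limma p under 0.05, 4 small-subunit proteins rose too. DAP3, a small-subunit protein without an MRP symbol, was called higher as well (limma log2 fold change 0.48, adjusted p = 0.0281). Whether the subunits differ was not tested.

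The 9 members that fell came from both subunits. MRPL50 (chromosome 9, 101387633 to 101398614), a large-subunit protein with no bacterial counterpart, had 1331 and 1145 in the shIMPA1 libraries, against 2430.2 and 1881 in the shLuc libraries. That was a 1.74-fold lower level in shIMPA1 (limma log2 fold change -0.79 ± 0.15, adjusted p = 0.00280). MRPL51 (chromosome 12, 6491886 to 6493841) had 6215 and 4583 in the shIMPA1 libraries, against 9292 and 7975 in the shLuc libraries (limma log2 fold change -0.69 ± 0.17, adjusted p = 0.00996). Of the exon bases of MRPL51, 31.3% lie under NCAPD2 on the opposite strand, and NCAPD2, a condensin subunit, had 3777 and 1707 in the shIMPA1 libraries, against 4789 and 5579 in the shLuc libraries (limma log2 fold change -1.03, adjusted p = 0.0164). Whether the kit kept strand is not given in the sources used here, so reads from these genes cannot be told apart with certainty. MRPL20 (chromosome 1, 1401908 to 1407313) had 1619 and 1434 in the shIMPA1 libraries, against 2273 and 2265 in the shLuc libraries (limma log2 fold change -0.57 ± 0.12, adjusted p = 0.00533). Its bacterial counterpart is needed for the first steps of large-subunit assembly, and its shLuc libraries were nearly equal. MRPS2, the small-subunit member with the largest fall, had 978 and 840.4 in the shIMPA1 libraries, against 1216 and 1481 in the shLuc libraries (limma log2 fold change -0.57 ± 0.14, adjusted p = 0.0107). MRPL14, whose counterpart forms a bridge between the subunits, had 1682 and 1449 in the shIMPA1 libraries, against 2587 and 2051 in the shLuc libraries (limma log2 fold change -0.56, adjusted p = 0.0159). The remaining falls by limma were MRPL39 (-0.49, adjusted p = 0.0328), MRPL24 (-0.46, adjusted p = 0.0431), MRPS28 (-0.44, adjusted p = 0.0344) and MRPS10 (-0.42, adjusted p = 0.0178). In all 16 called members the shIMPA1 and shLuc values did not overlap, 4 changed by more than 1.5-fold and none by more than 2-fold.

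**Figure D2:**
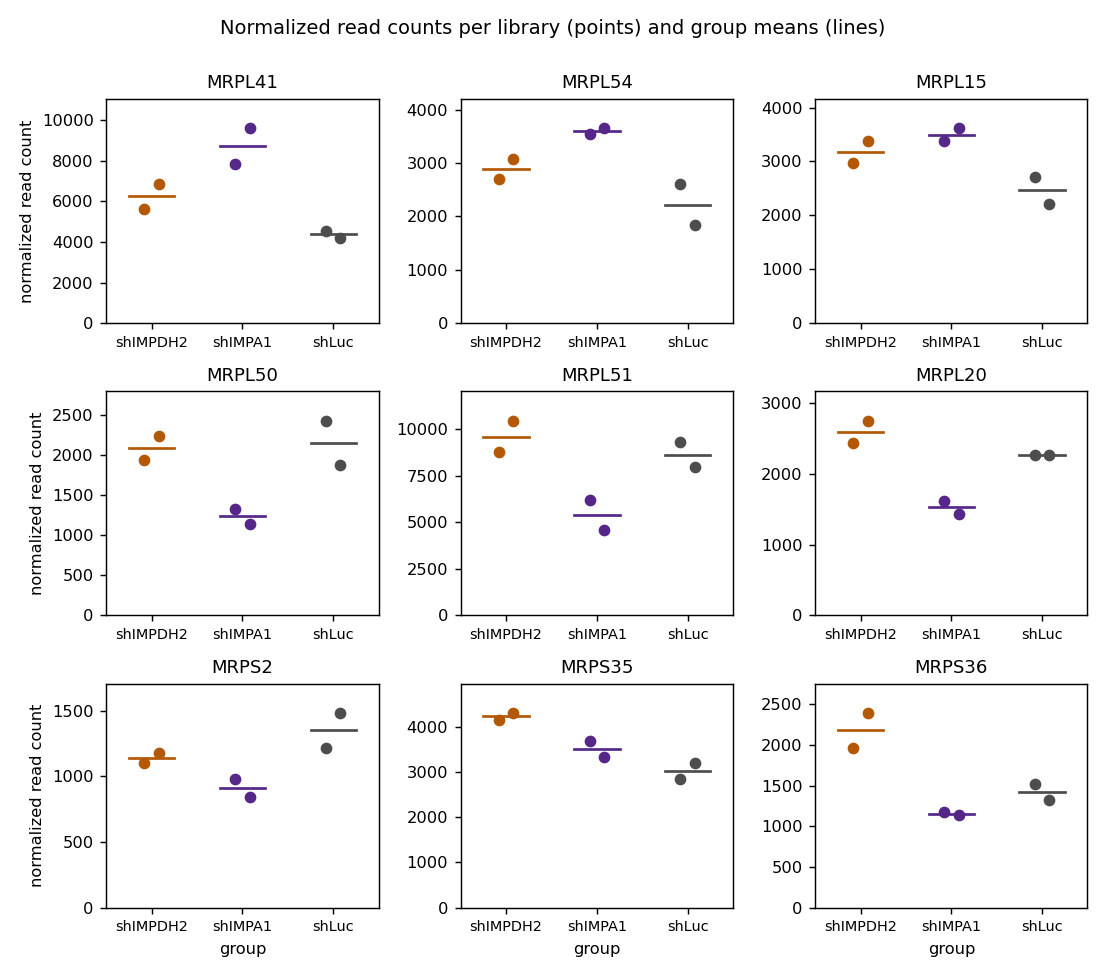
Normalized read counts of 9 members in each library (points) with the group means (lines), for MRPL41, MRPL54, MRPL15, MRPL50, MRPL51, MRPL20, MRPS2, MRPS35 and MRPS36; every vertical axis starts at 0. MRPL41 lies at 7811 and 9578 in shIMPA1, against 4535 and 4192 in shLuc, while MRPL50, MRPL51 and MRPL20 are lowest in shIMPA1 and MRPS36 is highest in shIMPDH2.

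By symbol, 6 of 49 large-subunit genes rose and 6 fell in shIMPA1 (median log2 fold change 0.04), while 1 of 29 small-subunit genes rose and 3 fell (median 0.00). By position in the particle the counts were 7 up and 6 down of 51 large-subunit proteins, and 0 up and 3 down of 26 small-subunit proteins. For that count of 0, limma gave 4 small-subunit rises at an unadjusted p under 0.05 and edgeR gave none at an adjusted p under 0.05. Members with a bacterial counterpart counted 3 up and 6 down of 46 (median -0.03), and those without counted 4 up and 3 down of 32 (median 0.13). The groups did not overlap for 28 members on the higher side (35.9%, against 33.7% of all genes) and for 22 on the lower side (28.2%, against 32.7%).

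Proliferation genes went one way in this comparison, unlike the members: all 12 examined, among them MKI67, PCNA and the MCM helicase subunits, fell in shIMPA1 (median log2 fold change -1.41). Their summed normalized counts were 53868 and 34577 in the shIMPA1 libraries, against 97366 and 100637 in the shLuc libraries, and their part in the changes of the members was not tested. The lower of the shIMPA1 sums belonged to replicate 2, which also held the lower value of MRPL50, MRPL51, MRPL20, MRPS2 and MRPL14. Over all 78 members, 42 were lower in that library than in shIMPA1 replicate 1 (53.8%, against 51.9% of all genes). In shLuc the lower sum belonged to replicate 1, which held the higher value of MRPL50, MRPL51, MRPL20 and MRPL14 and the lower value of MRPS2. The median GC content of protein-coding transcripts was 58.4% in members that rose, 49.9% in those that fell and 50.4% in the rest, and its part was not tested either. In bulk samples, fewer cells of a type and less RNA per cell cannot be told apart.

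Few of these calls, made with 3 residual degrees of freedom, held with every library left out in turn. Of the 16, MRPL41 alone kept its call in all 6 such fits (adjusted p up to 0.0192 by limma). Leaving out shLuc replicate 1 left 4 members called, without shLuc replicate 2 there were 5, without shIMPA1 replicate 1 there were 29, and without either shIMPDH2 library 10. MRPL50, MRPL51 and MRPL14 lost their calls without shLuc replicate 1 (adjusted p up to 0.0514, 0.107 and 0.173 by limma), MRPL54, MRPL15 and MRPS2 without shLuc replicate 2 (up to 0.0854, 0.159 and 0.130), and MRPL20 without either (up to 0.0535).

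The shIMPDH2 line had small rises and no called fall relative to shLuc. MRPS36, MRPL41, MRPS35, MRPL9 and MRPL27 were higher in shIMPDH2 than in shLuc, by 1.31 to 1.54-fold. These 5 rises and 0 falls are 6.41% of the 78 members at a limma adjusted p under 0.05, against 17.0% of all genes (7.86% higher, 9.15% lower). No member fell at an unadjusted limma p under 0.05, edgeR called none lower at an adjusted p under 0.05, and 18 rose at an unadjusted limma p under 0.05. The edgeR shares over all genes were 7.87% higher and 9.09% lower. The signs leaned one way: 61 of 78 log2 fold changes were above 0, against 49.4% of all genes tested, and the median was 0.13, against -0.01. All changes lay between -0.24 and 0.62. The 12 proliferation genes were all below 0 in this comparison, with sums of 72833 and 77008 in the shIMPDH2 libraries, against 97366 and 100637 in the shLuc libraries. MCM3 alone of them was called (limma log2 fold change -1.70, adjusted p = 8.68e-06), and their part in the members' values was not tested.

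MRPS36, the 2-oxoglutarate dehydrogenase subunit that keeps a ribosomal symbol, had 1967 and 2396 in the shIMPDH2 libraries, against 1519 and 1319.6 in the shLuc libraries. It was 1.54-fold higher in shIMPDH2 (limma log2 fold change 0.62 ± 0.13, adjusted p = 0.0104), and both of its shIMPDH2 values exceeded all others. A near copy elsewhere in the genome, MRPS36P1 (96.8% identity over 309 bases), may share its reads. MRPS35, a small-subunit protein with no bacterial counterpart, had 4152 and 4302 in the shIMPDH2 libraries, against 2851 and 3192 in the shLuc libraries (limma log2 fold change 0.49 ± 0.12, adjusted p = 0.0188). MRPL41 had 5626 and 6849 in the shIMPDH2 libraries, against 4535 and 4192 in the shLuc libraries (limma log2 fold change 0.51 ± 0.15, adjusted p = 0.0352), a level between those of shIMPA1 and shLuc. MRPL9 had 4837 and 5516 in the shIMPDH2 libraries, against 3928 and 3709 in the shLuc libraries (limma log2 fold change 0.44 ± 0.13, adjusted p = 0.0376). Of its exon bases 18.4% lie under OAZ3 on the opposite strand, and OAZ3 had 327 and 343 in the shIMPDH2 libraries, against 173 and 205 in the shLuc libraries (limma log2 fold change 0.83, adjusted p = 0.00714). Its part in the MRPL9 value was not tested. MRPL27 had 1808 and 2089 in the shIMPDH2 libraries, against 1549 and 1418 in the shLuc libraries (limma log2 fold change 0.39 ± 0.12, adjusted p = 0.0494). Both shLuc values lay below both shIMPDH2 values in each of these 5 genes.

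By symbol, 3 of 49 large-subunit genes rose (median log2 fold change 0.13) and 2 of 29 small-subunit genes did (median 0.19). Without MRPS36, MRPS30 and MRPS18A, which sit elsewhere, 1 of 26 small-subunit proteins rose, MRPS35, and the median was 0.16. Positive signs numbered 36 of 49 in the large and 25 of 29 in the small subunit. Members with a bacterial counterpart gave 2 rises of 46 (median 0.10) and those without gave 3 of 32 (median 0.18). The groups did not overlap for 34 members on the higher side (43.6%, against 32.7% of all genes) and 4 on the lower side (5.13%, against 33.4%). A lean towards higher values was thus present in both subunits and both classes, mostly below the size that passed the test.

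That lean was larger in one shIMPDH2 library. Between the 2 shIMPDH2 libraries, 74 of 78 members were higher in replicate 2 (median log2 difference 0.19), against 52.7% of all genes. Without replicate 2, 46 of 78 members were above 0 with a median of 0.05, and without replicate 1, 69 were above 0 with a median of 0.24. Without shLuc replicate 1 the count was 66 and without shLuc replicate 2 it was 53. Between the shLuc libraries 56 of 78 members were higher in replicate 1, against 46.7% of all genes, and between the shIMPA1 libraries 42 were. The 5 calls each failed in at least 3 of 6 fits with a library left out: without either shLuc library or shIMPDH2 replicate 2 none remained and without shIMPDH2 replicate 1 there was 1, while without either shIMPA1 library 20 were called.

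**Figure D3:**
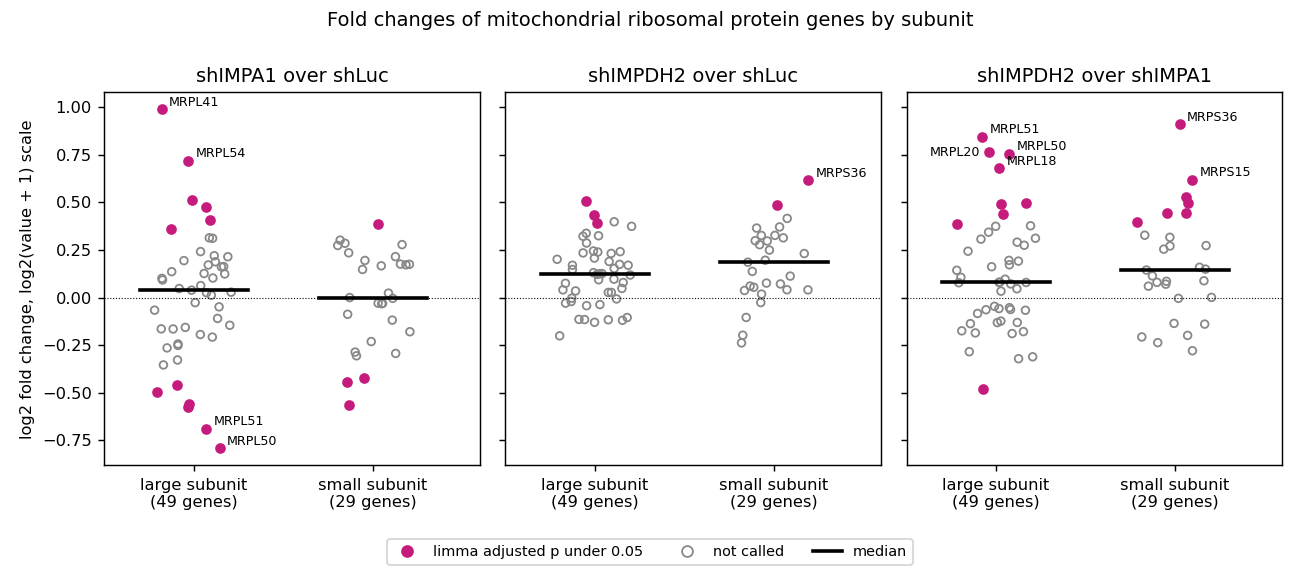
Log2 fold change, on the log2(value + 1) scale, of each large-subunit (49) and small-subunit (29) gene by symbol in the 3 comparisons; filled points passed a limma adjusted p under 0.05 and bars are medians. Members spread to both sides of 0 in shIMPA1 over shLuc (medians 0.04 and 0.00), lie mostly above 0 in shIMPDH2 over shLuc (0.13 and 0.19), and 15 of 16 called members are above 0 in shIMPDH2 over shIMPA1.

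Set directly against each other, the knockdown lines differed in 16 members, 15 of them higher in shIMPDH2 and 1, MRPL41, lower. This is 20.5% of the 78, against 26.1% of all genes tested (13.5% higher, 12.6% lower). The log2 fold changes ran between -0.48 and 0.91, with a median of 0.09, against -0.004 for all genes tested. Above 0 were 52 of 78, against 49.7% of all genes. This comparison shares its libraries with the other comparisons, so its calls add no independent sample. Of the 12 proliferation genes 11 were above 0 here and 8 were called higher in shIMPDH2 by limma (log2 fold changes of the 12 between -0.24 and 1.37), with sums of 72833 and 77008 in the shIMPDH2 libraries, against 53868 and 34577 in the shIMPA1 libraries. Their part in these differences was not tested.

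MRPS36 had 1967 and 2396 in the shIMPDH2 libraries, against 1175 and 1136 in the shIMPA1 libraries, 1.89-fold higher in shIMPDH2 (limma log2 fold change 0.91 ± 0.13, adjusted p = 0.000811). MRPL51 had 8762 and 10459.7 in the shIMPDH2 libraries, against 6215 and 4583 in the shIMPA1 libraries (limma log2 fold change 0.84 ± 0.17, adjusted p = 0.00424). MRPL20 had 2433 and 2752 in the shIMPDH2 libraries, against 1619 and 1434 in the shIMPA1 libraries (limma log2 fold change 0.76 ± 0.12, adjusted p = 0.00135), and MRPL50 had 1943 and 2236 in the shIMPDH2 libraries, against 1331 and 1145 in the shIMPA1 libraries (limma log2 fold change 0.76 ± 0.15, adjusted p = 0.00438). MRPL51, MRPL20 and MRPL50 are the members that fell most in shIMPA1 over shLuc, and in shIMPDH2 over shLuc none of them passed the test (log2 fold changes 0.15, 0.19 and -0.04). MRPL18, whose bacterial counterpart binds 5S rRNA, had 2716 and 3271 in the shIMPDH2 libraries, against 1958 and 1771 in the shIMPA1 libraries (limma log2 fold change 0.68 ± 0.13, adjusted p = 0.00349). MRPS15 had 2593 and 3136 in the shIMPDH2 libraries, against 1918 and 1796 in the shIMPA1 libraries (limma log2 fold change 0.62 ± 0.13, adjusted p = 0.00560). Against shLuc neither MRPL18 nor MRPS15 passed the test in either line: their log2 fold changes were 0.32 and 0.31 in shIMPDH2, and -0.35 and -0.31 in shIMPA1. Further small-subunit members higher in shIMPDH2 by limma were MRPS11 (0.53, adjusted p = 0.0191), MRPS28 (0.50, adjusted p = 0.0239), MRPS22 (0.44, adjusted p = 0.0241), MRPS10 (0.44, adjusted p = 0.0168) and MRPS31 (0.40, adjusted p = 0.0475). Further large-subunit members by limma were MRPL46 (0.50, adjusted p = 0.0393), MRPL39 (0.49, adjusted p = 0.0378), MRPL14 (0.44, adjusted p = 0.0485) and MRPL19 (0.39, adjusted p = 0.0390). MRPL46 and MRPS11 lie head to head on chromosome 15: the first base of MRPL46, on the minus strand, is at 88467419, and that of MRPS11, on the plus strand, at 88467453. MRPL41 was the one member lower in shIMPDH2 than in shIMPA1 (-0.48, adjusted p = 0.0332, by limma).

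By symbol, 8 of 49 large-subunit genes were higher and 1 lower (median log2 fold change 0.08), and 7 of 29 small-subunit genes were higher and none lower (median 0.14). On the lower side, 1 small-subunit gene had an unadjusted limma p under 0.05 and edgeR called 0. MRPL20 and MRPS36 kept their calls in all 6 fits with a library left out (adjusted p up to 0.0388 and 0.0268 by limma). MRPS15, MRPL18, MRPL50 and MRPL51 lost theirs only without shIMPDH2 replicate 2 (adjusted p up to 0.101, 0.0746, 0.0782 and 0.0766). Without that library 2 members were called, the median over all members was 0.00 and 39 of 78 were above 0. Without shIMPDH2 replicate 1 there were 6 calls, without either shLuc library 9 and without shIMPA1 replicate 1 there were 31.

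Summed over genes, the ratio of the subunits overlapped between all 3 lines. Large-subunit members by symbol summed to 130893 and 150253 normalized reads in shIMPDH2, 133405 and 125865 in shIMPA1 and 137270.4 and 120806 in shLuc. Small-subunit members summed to 69566 and 77464 in shIMPDH2, 65943 and 65858 in shIMPA1 and 66336 and 62779 in shLuc. The large-subunit sums overlapped between all groups, and for the small subunit both shIMPDH2 sums lay above the other 4. The ratio of large to small was 1.88 and 1.94 in shIMPDH2, 2.02 and 1.91 in shIMPA1, and 2.07 and 1.92 in shLuc, and these ranges overlap. With 2 libraries against 2, an exact permutation test cannot fall below p = 0.333 (two-sided), so no p is given for these sums.

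**Figure D4:**
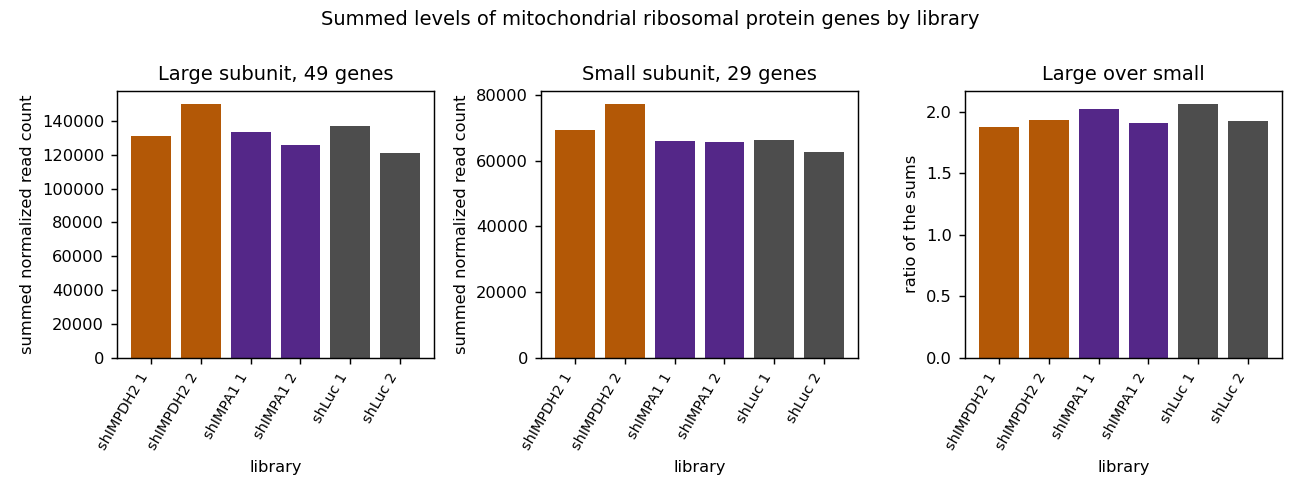
Summed normalized read counts of large-subunit genes (left), small-subunit genes (middle) and their ratio (right) in each of the 6 libraries; bars start at 0 and carry no error, since each is 1 library. The ratio stays between 1.88 and 2.07 in all libraries, and both shIMPDH2 libraries have small-subunit sums of 69566 or more, above the other 4.

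MRPL12 and MRPL10 form the stalk that recruits translation factors. MRPL12 had 1843 and 2111 in shIMPDH2, 1928 and 1807 in shIMPA1 and 2305 and 1977 in shLuc. Of its exon bases 68.2% lie under AC139530.2 on the same strand, and the part of this in its counts was not tested. MRPL10 had 694 and 625 in shIMPDH2, 521 and 594 in shIMPA1 and 556 and 699 in shLuc, and the groups overlap in MRPL10. MRPS12, which shapes the decoding site, had 2100.2 and 2298 in shIMPDH2, 1967 and 2178 in shIMPA1 and 1719 and 1677 in shLuc. Both knockdown lines lay above shLuc in MRPS12, with limma adjusted p of 0.0522 for shIMPDH2 and 0.0906 for shIMPA1. MRPL58, a peptidyl-tRNA hydrolase built into the large subunit, had 1019 and 1323 in shIMPDH2, 1295 and 1127 in shIMPA1 and 1160.2 and 1106 in shLuc. MRPL45, which anchors the particle to the inner membrane, had 1421 and 1614, 1209 and 1446 and 1158 and 1266 in the same order of groups. Both genes were without a call in any comparison, and MRPL45 has a near copy in the table (MRPL45P2, 97.0% identity over 506 bases) that may share its reads. MRPL44 had 1026 and 1088 in shIMPDH2, 1096 and 1208 in shIMPA1 and 878 and 918 in shLuc.

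In the small subunit, MRPS27, which belongs to the pentatricopeptide repeat proteins, had 2514 and 2351 in shIMPDH2, 2505 and 2845 in shIMPA1 and 2178 and 2564 in shLuc. MRPS34, which is needed for a stable small subunit, had 7776 and 8716 in shIMPDH2, 7335 and 5956 in shIMPA1 and 7954 and 7039.9 in shLuc. Neither passed the test in any comparison. MRPS30, placed in the large subunit, had 1778 and 1678 in shIMPDH2, 2234 and 1966 in shIMPA1 and 1902 and 1812 in shLuc, with both shIMPA1 values highest. The S18 trio are paralogs at different places in the particle. MRPS18A had 777 and 818 in shIMPDH2, 854 and 902 in shIMPA1 and 669 and 672 in shLuc. MRPS18B had 1801 and 1941, 1866 and 1871 and 1481 and 1798 in the same order, and MRPS18C had 1265 and 1523, 1438 and 1096 and 1567 and 1051. MRPS18A was called in shIMPA1 over shLuc and in neither other comparison, MRPS18B and MRPS18C in none, and in MRPS18C the shLuc libraries were the lowest and the highest of all 6. Differences between the paralogs' responses were not tested. Of the exon bases of MRPS18A 47.0% lie under RSPH9 on the opposite strand, but RSPH9 had under 36 normalized reads in every library.

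In all, 26 members (16 large and 10 small by symbol) were called in at least 1 of the 3 comparisons and 52 (33 large and 19 small) in none. The 52 had log2 fold changes between -0.33 and 0.31 in shIMPA1 over shLuc, between -0.20 and 0.42 in shIMPDH2 over shLuc, and between -0.28 and 0.38 in shIMPDH2 over shIMPA1. Among them MRPL11, MRPS26 and MRPL30 show how close the groups could lie. MRPL11 had 4675 and 5519 in shIMPDH2, 4751 and 4858 in shIMPA1 and 5549.8 and 4839 in shLuc, and MRPS26 had 3766 and 4430.2, 3814 and 4024 and 4029 and 3807 in the same order. MRPL30 had 1679.7 and 1626 in shIMPDH2, 1762 and 1694 in shIMPA1 and 1981 and 1650.4 in shLuc. These 3 were chosen after their values were seen. Shared reads are possible in more members: 15 have at least 10% of their exon bases under a gene on the opposite strand, 10 under one on the same strand, and 4 (MRPL45, MRPS10, MRPS22 and MRPS36) have a copy elsewhere of at least 95% identity over at least 200 bases.

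The wider machinery of mitochondrial translation was read from lists of genes. Of 5 mitoribosomal proteins without an MRP symbol, DAP3 rose in shIMPA1 (1960.2 and 2550.4 in the shIMPA1 libraries, against 1536 and 1678 in the shLuc libraries, limma log2 fold change 0.48, adjusted p = 0.0281). CHCHD1 was higher in shIMPDH2 than in shIMPA1 (2784 and 3463 in the shIMPDH2 libraries, against 2347 and 2128 in the shIMPA1 libraries, limma log2 fold change 0.47, adjusted p = 0.0403). No gene of the 5 passed in shIMPDH2 over shLuc, where 1 did at an unadjusted limma p under 0.05 and none by edgeR. Both called genes encode small-subunit proteins. DAP3 was the 1 call of the 5 in shIMPA1 over shLuc, against 30.2% of all genes called. CHCHD1 was the 1 call of the 5 in shIMPDH2 over shIMPA1, against 26.1% of all genes called. Among 26 assembly and rRNA maturation factors, 3 rose and 1 fell in shIMPA1 (15.4%, against 30.2% of all genes called, median 0.06). In shIMPDH2 2 rose and none fell (7.69%, against 17.0% of all genes called, median 0.13), with 0 falls at an unadjusted limma p under 0.05 and 0 by edgeR. MTERF4, which brings the rRNA methyltransferase NSUN4 to the large subunit, had 3295 and 3553 in shIMPDH2, 1081 and 974 in shIMPA1 and 2228 and 2144 in shLuc. It thus moved in opposite directions against shLuc, by limma 0.65, adjusted p = 0.00398 in shIMPDH2 and -1.09, adjusted p = 9.78e-05 in shIMPA1. NSUN4 itself rose in shIMPA1 (801 and 867 in the shIMPA1 libraries, against 573 and 630.0 in the shLuc libraries, limma log2 fold change 0.47, adjusted p = 0.0162), as did the GTPase MTG1 (0.36, adjusted p = 0.0466) and METTL17 (0.35, adjusted p = 0.0374). NGRN was the other assembly factor that rose in shIMPDH2 (limma 0.44, adjusted p = 0.0363). Between the knockdown lines 4 assembly factors were higher in shIMPDH2, ERAL1 (0.53, adjusted p = 0.0176, by limma) among them, and 2 were lower (23.1% called, against 26.1% of all genes).

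**Figure D5:**
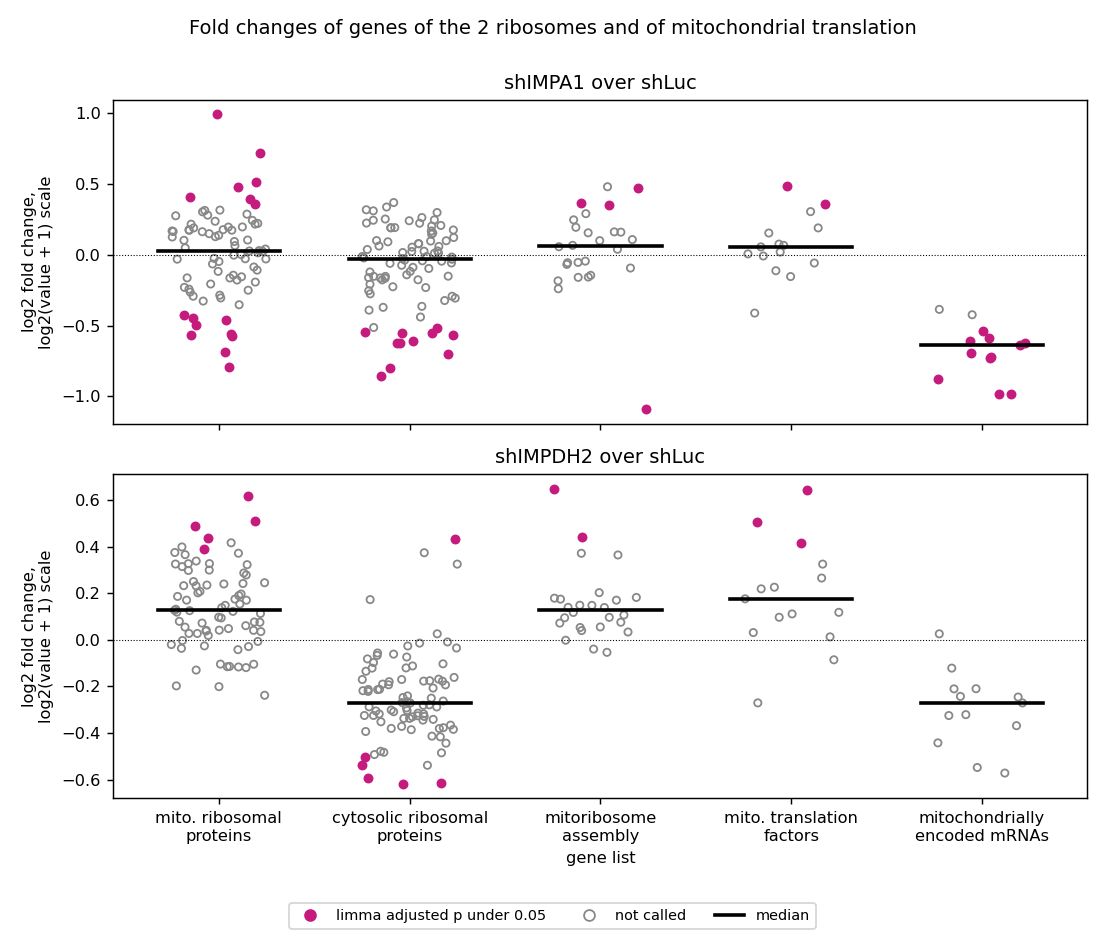
Log2 fold changes, on the log2(value + 1) scale, of mitochondrial (78) and cytosolic (87) ribosomal proteins, assembly factors (26), translation factors (15) and mitochondrially encoded mRNAs (13) in shIMPA1 over shLuc (top) and shIMPDH2 over shLuc (bottom); filled points passed a limma adjusted p under 0.05, and bars are medians. In shIMPDH2 the median is 0.13 for mitochondrial and -0.27 for cytosolic ribosomal proteins; in shIMPA1 the 13 mitochondrially encoded mRNAs all lie below 0, with a median of -0.64.

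Of 15 mitochondrial translation factors, 2 rose in shIMPA1 (13.3%, against 30.2% of all genes called). In shIMPDH2 3 of the 15 rose, against 17.0% of all genes called. Whether these shares differ from those of all genes was not tested. There was no fall at an adjusted p under 0.05 by limma or edgeR in either line. At an unadjusted limma p under 0.05 there was 1 fall in shIMPA1 and 0 in shIMPDH2. The elongation factor GFM1 had 1826 and 1956 in shIMPDH2, 1756 and 1973 in shIMPA1 and 1308 and 1355 in shLuc, and it rose in both lines (limma 0.51, adjusted p = 0.0149 in shIMPDH2 and 0.48, adjusted p = 0.0111 in shIMPA1). The recycling factor MRRF rose in shIMPA1 (limma 0.36, adjusted p = 0.0446). The initiation factor MTIF3 (0.64, adjusted p = 0.0122) and GFM2, a factor that splits the subunits after termination (0.41, adjusted p = 0.0408), rose in shIMPDH2 by limma. The mRNAs that the mitoribosome reads were lower: of the 13 mitochondrially encoded mRNAs 11 fell in shIMPA1 (84.6%, against 16.2% of all genes called lower). None rose, and all 13 lay below 0 (median log2 fold change -0.64). The 13 genes lie on the same small genome, where MT-ATP8 overlaps MT-ATP6 and MT-ND4L overlaps MT-ND4. The 11 falls therefore need not be independent, unlike a share over all genes. No count with a library left out is given for this list. MT-ATP6, an ATP synthase subunit, had 14398 and 9253 in the shIMPA1 libraries, against 21751 and 23815 in the shLuc libraries (limma -0.98, adjusted p = 0.00395). In shIMPDH2 none of the 13 passed, by limma or edgeR, 4 had an unadjusted p under 0.05 and 12 were below 0 (median -0.27). MT-ATP6 had 17069 and 14212 in the shIMPDH2 libraries.

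Cytosolic ribosomal proteins, the 87 genes of the other ribosome, gave no rise and 11 falls in shIMPA1 (12.6%, against 16.2% of all genes called lower; median log2 fold change -0.03). That median was 0.09 without shIMPA1 replicate 1 and 0.03 without shLuc replicate 1, and -0.15 without shIMPA1 replicate 2 and -0.14 without shLuc replicate 2. No cytosolic gene rose at an unadjusted limma p under 0.05 or by edgeR. Genes of both families fell there, RPL11 (-0.80, adjusted p = 0.00219) and RPS13 (-0.62, adjusted p = 0.00584) among the cytosolic ones by limma. In shIMPDH2 1 cytosolic gene rose and 5 fell (6.90% called, against 17.0% of all genes), 82 of 87 log2 fold changes were below 0 and the median was -0.27. The mitochondrial family had 61 of 78 above 0 and a median of 0.13 in the same comparison. In shIMPDH2 the signs of the cytosolic genes stayed on their side with any one of the 4 compared libraries left out (74 to 82 of 87 below 0), and those of the mitochondrial genes ranged between 46 and 69 of 78 above 0. Whether the families differ was not tested. Between the shIMPDH2 libraries 80 of the 87 cytosolic genes were also higher in replicate 2.

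Of 14 regulators of mitochondrial gene expression examined, 2 rose and 1 fell in shIMPA1 (21.4%, against 30.2% of all genes called in either direction). In shIMPDH2 1 fell (7.14%, against 17.0% called in either direction). Between the knockdown lines 5 were lower in shIMPDH2 than in shIMPA1 (35.7%, against 12.6% of all genes called lower and 26.1% called in either direction). ESRRA, a nuclear receptor acting on mitochondrial genes, rose in shIMPA1 (6982 and 8179 in the shIMPA1 libraries, against 5802 and 4972 in the shLuc libraries, limma log2 fold change 0.49, adjusted p = 0.0172). Its coactivator gene PPARGC1A had 164 and 404 in the shIMPA1 libraries, against 32.4 and 35.0 in the shLuc libraries (limma 2.90, adjusted p = 0.000395), a large change at a low level. MTERF1 fell in shIMPA1 (-0.47, adjusted p = 0.0482, by limma). In shIMPDH2 MYC alone of the 14 was called, lower with 3157 and 3117 in the shIMPDH2 libraries, against 4659 and 5206 in the shLuc libraries (limma -0.65, adjusted p = 0.00915), and 12 of the 14 were below 0. The 5 lower in shIMPDH2 than in shIMPA1 by limma were PPARGC1A (-3.92, adjusted p = 6.56e-05), MYC (-0.93, adjusted p = 0.000819), ESRRA (-0.59, adjusted p = 0.00839), PPARGC1B (-0.52, adjusted p = 0.0204) and PPRC1 (-0.44, adjusted p = 0.0181). Of the genes for factors bound to the motifs sought in the promoters, GABPA, YY1 and NRF1 were examined. None of them passed the test in any comparison, and no other ETS family gene was among the 14. GABPA had 1672 and 1717 in shIMPDH2, 1664 and 1509.9 in shIMPA1 and 1987 and 1914 in shLuc. YY1 had 4307 and 4345 in shIMPDH2, 3908 and 4046 in shIMPA1 and 4246 and 4598 in shLuc, and NRF1 had 772 and 799.7, 814 and 767 and 842 and 955 in the same order. Of the 7 members that rose in shIMPA1, 1 had the YY1 word and 3 the ETS word in their promoter. Of the 9 that fell, 4 had the YY1 word and 3 the ETS word. The promoters of MRPL15, which rose, and MRPS28, which fell, were not matched.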

How the data were processed

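RNA from 6 libraries was sequenced after poly(A) selection. The tools named in the submitters' processing notes are Trimmomatic 0.36, STAR 2.5.2b, featureCounts of Subread 1.5.2 and DESeq2, and the build is GRCh38. The labels' protocols state that unique reads in exons were counted, by strand only if the kit kept it. Whether the kit did, like the annotation release, is not given in the sources used here. The deposited signal values are read counts that the authors divided by a size factor per library, as the values show: 99.98% to 100% became whole reads, within 0.05 of a read, when divided by the value of 1 read. The authors also deposited a log2 fold change, a p-value and an adjusted p-value per gene for a comparison their header does not name, and these entered no test.

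Symbols and gene types came from a gene name table and GENCODE 29, and 7 rows with a member symbol that are not protein coding were left out. On log2(value + 1), limma 3.58.1 (R 4.3.3) with a mean-variance trend was fitted to 17742 genes over all 6 libraries, leaving 3 residual degrees of freedom, and 69 genes failed the filter. Calls are at a Benjamini-Hochberg adjusted p under 0.05 over all genes tested, and errors of fold changes are standard errors. Fold changes on this scale understate changes of low genes. On the recovered reads edgeR 4.0.16 called 5480 genes in shIMPA1 over shLuc, 3010 in shIMPDH2 over shLuc and 4551 in shIMPDH2 over shIMPA1, against 5361, 3018 and 4627 by limma. DESeq2 1.42.0 was an alternative. Near copies were sought with BLAST 2.17.0+. The script was tested on simulated data.

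The members and lists were chosen with earlier results of these data known. Named are the called members whose groups did not overlap (up to 12 each way), the 3 highest and 3 lowest per kilobase, members with a stated role, and up to 4 genes per list with the smallest adjusted p. One gene of the luminal marker list is not reported here, and the list was read without it.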

Additional observations from a re-analysis of the deposited data

How the results depend on the processing

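With another pseudocount, other filters, TMM factors, edgeR, or DESeq2, members called stayed within 1.5 times of 16 for shIMPA1 over shLuc, 5 for shIMPDH2 over shLuc and 16 for shIMPDH2 over shIMPA1. Fitting the compared groups alone gave 10, 20 and 9, and leaving out the mean-variance trend 3, 0 and 6. With 1 library left out the counts ranged between 4 and 29, between 0 and 20, and between 2 and 31. The median log2 fold changes ranged between -0.048 and 0.112 (large) and between -0.028 and 0.058 (small) for shIMPA1 over shLuc, between 0.026 and 0.223 and between 0.089 and 0.250 for shIMPDH2 over shLuc, and between -0.039 and 0.178 and between 0.021 and 0.212 for shIMPDH2 over shIMPA1. The cause was not tested. No called member changed sign under any of these settings.

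Samples of the same number did not deviate together over all genes tested (correlations of replicate differences 0.04, -0.05 and 0.00). With 1 difference per group, these correlations cannot show whether such samples shared a preparation. With a replicate block 15, 4 and 14 members were called. Depth was 20828900 reads or more and member values 254 or more. The sample titles do not state whether a group holds more than 1 line. A difference between lines and an effect of the knockdown therefore cannot be told apart.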
